A study of Homo sapiens with 8 samples.

Results

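The genes described here are 32 human genes that make, sense, move, export and store cholesterol, taken as a fixed list of symbols out of 58735 gene IDs in the count files. They comprise 18 enzymes of cholesterol synthesis, 5 genes of sterol sensing, 3 of intracellular transport, 5 of the liver X receptor (LXR) and export arm and 1 of storage. The study asked how the human acute myeloid leukemia cell line MOLM-13 becomes resistant to the alkylating drug busulfan, with lipid and cholesterol metabolism among its themes. The 4 bulk RNA libraries used here belong to its drug-free arm. They are parental cells with no vehicle (0 courses) and vehicle cultures after 1, 3 or 5 courses of 1% DMSO, with 1 library at each step. According to the labels all cells grew in RPMI medium with 10 to 20% fetal bovine serum, which carries lipoprotein cholesterol. The labels do not say which serum level each culture received, and they give no passage number for the DMSO cultures, so time in culture and the courses cannot be told apart.

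Animal cells build cholesterol from acetyl-CoA through mevalonate, isoprenoid units, squalene and a series of sterols. When sterols in the endoplasmic reticulum are scarce, the escort protein SCAP carries the transcription factor SREBP2 (gene SREBF2) to the Golgi apparatus, where it is cut and released to activate synthesis genes and lipoprotein receptors, while the INSIG proteins hold the complex back when sterols are plentiful. Oxysterols activate LXR, which turns on the exporters ABCA1 and ABCG1 and the ubiquitin ligase MYLIP, which marks lipoprotein receptors for destruction. Leukemic cells are known to depend on both synthesis and uptake for their membrane cholesterol.

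Gene counts per library lay between 44795976 and 56825811. All 4 libraries carried myeloid markers, 9 of 10 of which exceeded 1 CPM in every library (CPM, a gene's reads scaled to library depth), with a summed level of 3234 CPM in the parental library and 4434, 3971 and 3292 CPM in courses 1, 3 and 5. CD14 was the 1 below that level. Erythroid, fibroblast, hepatocyte and B-cell markers summed to between 0 and 3.34 CPM, with the defining genes ALAS2, COL3A1, TTR and MS4A1 at 0. The T-cell list summed to between 52.4 and 81.6 CPM, nearly all of it from TRAC. Course 5 had the highest share of reads aligned to several places, 21.33% against 13.86 to 15.39% in the others, and the lowest mitochondrial share of gene counts, 9.22% against 13.57 to 15.11%. In these bulk libraries fewer cells of a type and less RNA per cell cannot be told apart.

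Transcripts of the synthesis pathway were higher after 1 course of DMSO than in parental cells, and lower after 3 and 5 courses. Of the 18 synthesis enzymes, 15 lay above parental in course 1 (median log2 ratio 0.32) and 17 lay below it in course 5 (median -0.69). Between the DMSO courses themselves, 17 of 18 enzymes were lower in course 5 than in course 1, with a median log2 ratio of -1.25. Across all 13589 genes that averaged at least 1 CPM these 3 medians were 0.02, 0.02 and 0.03. ABCA1, the main exporter, ran the other way, at 2.34-fold its course 1 level in course 5. MYLIP, also an LXR target, ran with the synthesis enzymes instead. With 1 library at each step these ratios are descriptions, and none of the listed genes passed edgeR's tests over the 4 libraries, nor did any of the 18612 genes tested (0%).

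The sequence of course 1 above parental and courses 3 and 5 both below it was seen in 14 of 18 synthesis enzymes and in 19 of the 31 listed genes that averaged at least 1 CPM, against 16.9% of all genes at that level. The opposite sequence, course 1 below parental and courses 3 and 5 above, was seen in 4 of 31 (PMVK, SCAP, ABCA1 and SOAT1), against 16.6% of all genes. A strict descent from course 1 through parental and course 3 to course 5 was seen in 16 of 31 listed genes and in 11 of 18 synthesis enzymes, against 14.2% of all genes. Lower in both course 3 and course 5 than in parental cells were 23 of 31 listed genes and 16 of 18 enzymes, against 39.9% of all genes. The 3 ratios to parental share the parental library, so they are not independent of each other. Genes of 1 pathway in the same 4 libraries are not independent either, and these counts carry no test.

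**Figure D1:**
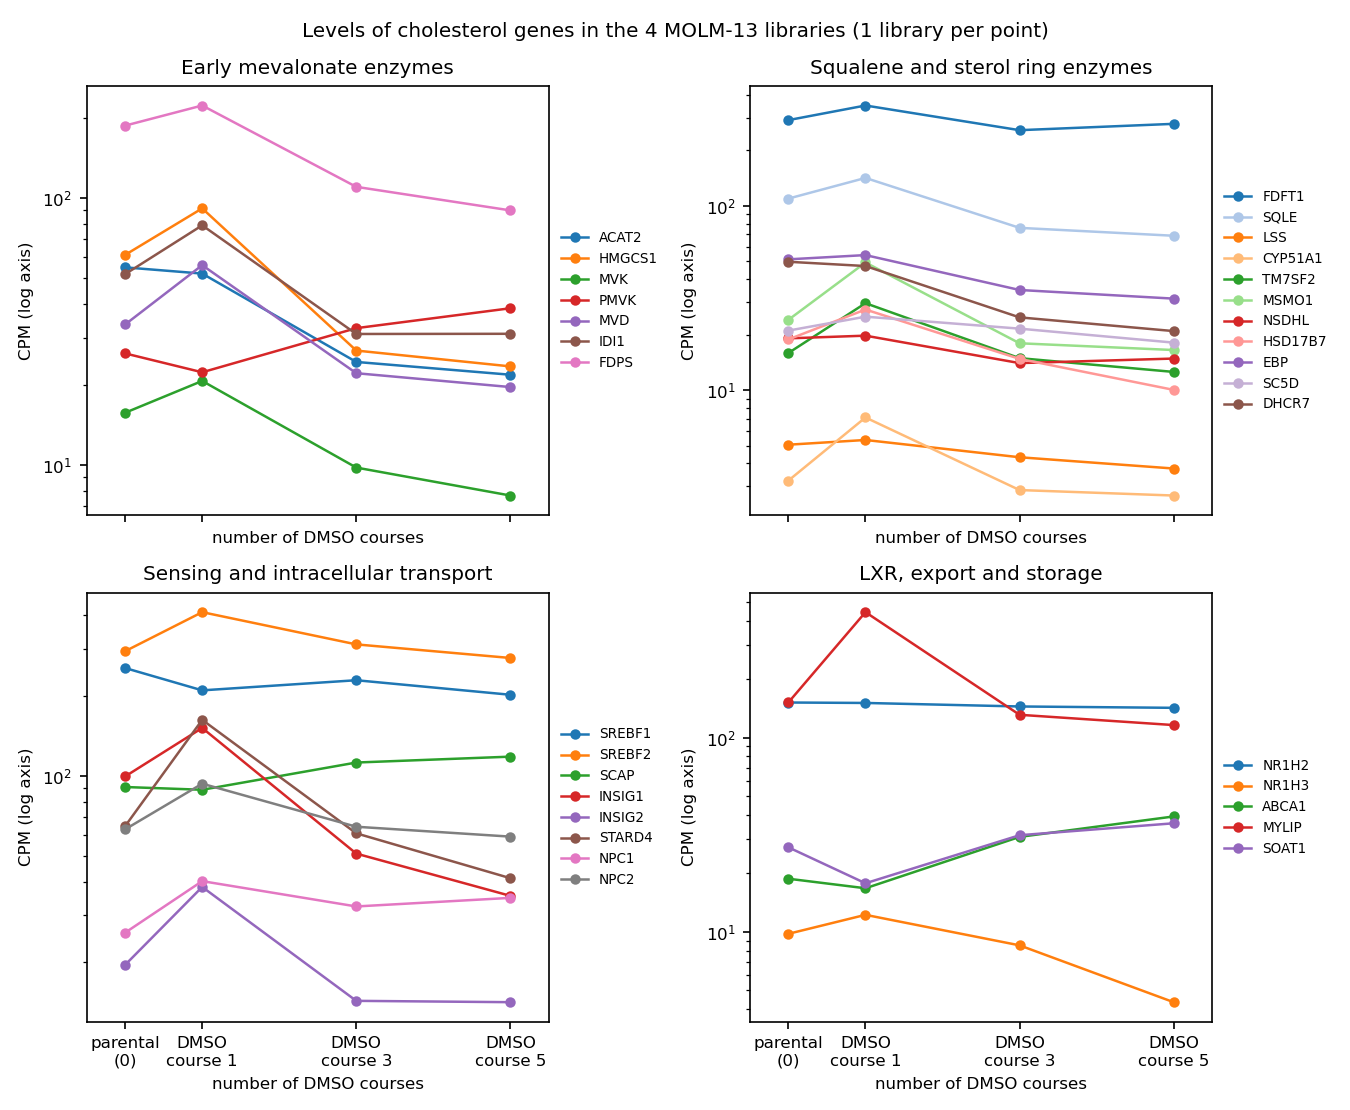
Level of each gene averaging at least 1 CPM in each of the 4 libraries, in 4 panels by role. The horizontal axis is the number of DMSO courses (0 for parental) and the vertical axis is CPM on a log scale, with 1 point per library and no error bar because each library is single. Most synthesis lines peak at course 1 and lie lowest at course 5, while ABCA1 and SOAT1 lie lowest at course 1.

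A gene was counted as apart between 2 libraries when its mean was at least 5 CPM, its CPM differed at least 2-fold and the exact 95% interval of the ratio, which covers counting error only, excluded 1. Of the 32 genes, 29 reached that mean. In course 1, MSMO1, STARD4 and MYLIP were apart and higher than parental (3 of 29, against 3.70% of all genes) and none was apart and lower (against 4.19%). In course 3, none was apart and higher (against 2.23%), while ACAT2, HMGCS1 and DHCR7 were apart and lower (3 of 29, against 2.34%). In course 5, ABCA1 was apart and higher (1 of 29, against 2.96%), while ACAT2, HMGCS1, MVK, FDPS, DHCR7, INSIG1 and NR1H3 were apart and lower (7 of 29, against 4.92%). Genes apart and lower than parental were thus most numerous in course 5.

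Set against course 1, the separation was wider. In course 3, 11 of 29 were apart and lower than in course 1 (against 4.82%) and none higher (against 3.90%). In course 5, 16 of 29 were apart and lower than in course 1 (against 9.08%), 11 of them among the 16 synthesis enzymes at that mean, and 2, ABCA1 and SOAT1, were apart and higher (against 7.14%). Between courses 5 and 3 none of 29 was apart in either direction, near the share over all genes (0.0747% higher and 0.915% lower). Of the 31 listed genes averaging at least 1 CPM, the counting interval of course 5 over course 3 lay below 0 for 18 and above 0 for 6. The share of all genes with such intervals is not given. By sign alone, 23 of 31 were lower and 8 higher, against 6556 lower and 7026 higher of all genes. Course 5 is also the library with the high multi-aligned and low mitochondrial shares, while course 3 had 14.24% and 15.11%. The part of these shares in the ratios was not tested.

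**Figure D2:**
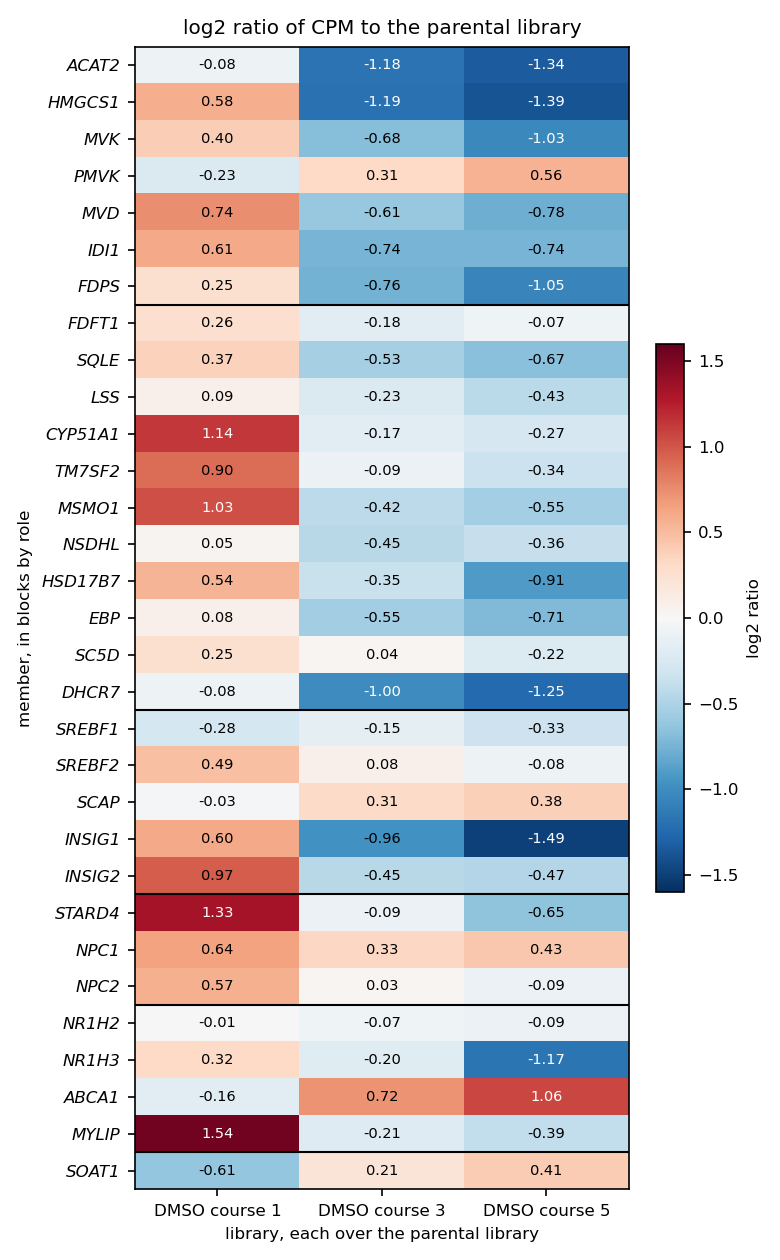
Log2 CPM ratio of each gene in DMSO courses 1, 3 and 5 over parental, with genes down the page in blocks by role, courses across and colour giving sign and size. Synthesis genes are mostly positive in course 1 and negative in courses 3 and 5, and the ratios run from -1.49 (INSIG1, course 5) to 1.54 (MYLIP, course 1).

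Promoter sequences are shown for a few genes because SREBP2 is known to act with the factor NF-Y, which binds CCAAT boxes, and LXR is known to bind a spaced direct repeat. RefSeq windows of 300 bases around annotated starts (250 before and 50 after, build GRCh38.p14) were matched by symbol for 28 of the 32 genes. ACAT2, FDFT1, SQLE and ABCG1 were not matched. HMGCS1 (chr5:43313363-43313662, minus strand), MSMO1 (chr4:165327419-165327718, plus strand) and STARD4 (chr5:111512486-111512785, minus strand) each carry more than 1 CCAAT box and were all lower in course 5 than in course 1. SREBF2 (chr22:41832855-41833154, plus strand) is the regulator itself. PMVK (chr1:154936670-154936969, minus strand) and ABCA1 (chr9:104928106-104928405, minus strand), higher in course 5 than in course 1, hold no CCAAT in these windows. These examples do not tie the number of CCAAT boxes to the size or direction of a ratio. NSDHL holds 5 at a log2 ratio of course 5 over course 1 of -0.41, EBP holds 3 at -0.79, INSIG1 holds 1 at -2.09, SOAT1 holds 1 at 1.03 and CYP51A1 holds none at -1.41. Each sequence reads 5′ to 3′ on the gene's strand, and capitals mark CCAAT or its complement ATTGG, the sterol element TCACCCCAC in SREBF2 and the direct repeat in ABCA1.
HMGCS1: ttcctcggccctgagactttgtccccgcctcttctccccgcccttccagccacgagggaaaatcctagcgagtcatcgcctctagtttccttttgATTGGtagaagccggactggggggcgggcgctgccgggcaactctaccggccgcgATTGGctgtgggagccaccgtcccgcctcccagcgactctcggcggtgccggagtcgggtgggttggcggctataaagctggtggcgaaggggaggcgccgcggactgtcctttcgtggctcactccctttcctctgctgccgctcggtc
MSMO1: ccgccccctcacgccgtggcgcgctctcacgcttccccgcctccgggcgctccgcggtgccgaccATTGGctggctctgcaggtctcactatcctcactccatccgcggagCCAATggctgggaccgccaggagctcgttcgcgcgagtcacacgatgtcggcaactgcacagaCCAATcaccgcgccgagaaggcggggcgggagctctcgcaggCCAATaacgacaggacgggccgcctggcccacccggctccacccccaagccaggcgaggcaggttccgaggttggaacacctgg
STARD4: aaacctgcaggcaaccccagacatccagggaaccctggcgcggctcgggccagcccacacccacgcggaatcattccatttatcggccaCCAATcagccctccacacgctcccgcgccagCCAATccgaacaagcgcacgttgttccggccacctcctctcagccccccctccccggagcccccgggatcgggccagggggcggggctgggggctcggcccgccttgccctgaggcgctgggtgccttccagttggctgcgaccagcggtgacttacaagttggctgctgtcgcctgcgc
SREBF2: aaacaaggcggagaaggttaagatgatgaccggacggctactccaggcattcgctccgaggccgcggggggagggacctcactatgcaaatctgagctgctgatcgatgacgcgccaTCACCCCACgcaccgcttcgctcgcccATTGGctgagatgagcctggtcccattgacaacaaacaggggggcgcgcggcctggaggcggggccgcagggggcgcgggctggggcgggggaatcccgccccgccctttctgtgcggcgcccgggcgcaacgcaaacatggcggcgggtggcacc
PMVK: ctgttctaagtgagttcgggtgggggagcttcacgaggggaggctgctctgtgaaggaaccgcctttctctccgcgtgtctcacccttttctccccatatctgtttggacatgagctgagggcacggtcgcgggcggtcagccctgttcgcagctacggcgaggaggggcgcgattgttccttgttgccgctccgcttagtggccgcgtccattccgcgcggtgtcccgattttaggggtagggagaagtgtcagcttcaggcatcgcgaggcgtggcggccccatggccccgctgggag
ABCA1: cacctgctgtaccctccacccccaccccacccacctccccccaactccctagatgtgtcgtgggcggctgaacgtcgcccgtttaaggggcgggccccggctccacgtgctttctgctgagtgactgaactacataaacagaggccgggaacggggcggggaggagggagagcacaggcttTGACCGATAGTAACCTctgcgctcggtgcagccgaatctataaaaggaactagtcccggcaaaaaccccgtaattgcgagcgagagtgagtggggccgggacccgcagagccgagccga

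Counted over both strands, CCAAT lay in the windows of 13 of 15 matched synthesis genes (all but CYP51A1 and PMVK) and of 7 of 13 other matched genes, against 34.6% of all 35116 windows. HMGCS1 has a second window, which holds none. GGGCGG, the box bound by Sp1, lay in 14 of 15 synthesis genes and all 13 others, against 45% of all windows. The sterol element, searched as TCACNCCAC, lay in none of the 15 synthesis genes and in SREBF2 among the others, at position -133 from the start, against 1.13% of all windows. The LXR repeat, searched as AGGTNA followed after 4 bases of any kind by NGGTCA, lay only in ABCA1 among the matched genes, on the opposite strand at position -69 from the start, against 0.094% of all windows. That pattern was picked with the ABCA1 element known, and a gene with several windows has more chances of a match. No match of 1 motif overlapped a match of another, while CCAAT and ATTGG overlapped each other in IDI1 and NSDHL and neighbouring GGGCGG matches did so in INSIG1, NPC2 and SREBF2. A match describes letters and does not show that a factor binds. Nor does a missing match to 1 exact pattern in these windows show that a gene lacks such an element.

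Of the 7 early enzymes, which lead to farnesyl diphosphate, 6 were lower in courses 3 and 5 than in parental cells. HMGCS1, which condenses acetyl units into HMG-CoA, stood at 61.2 CPM in parental cells and at 91.4, 26.8 and 23.4 CPM in DMSO courses 1, 3 and 5. Its course 1 library was the highest and courses 3 and 5 lay well below both others, so that course 5 held 1 part in 3.91 of the course 1 level (log2 ratio -1.97, 95% counting interval -2.06 to -1.87). ACAT2, the thiolase that makes acetoacetyl-CoA, stood at 55.0 CPM in parental cells and at 52.1, 24.3 and 21.8 CPM in DMSO courses 1, 3 and 5. Unlike HMGCS1 it was about level between course 1 and parental (log2 ratio -0.08, interval -0.16 to 0.00), and its drop lay between course 1 and course 3. The ACAT2 gene overlaps TCP1 on the opposite strand, and TCP1 itself stood between 279.5 and 404 CPM with its lowest value in course 1.

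The kinases of the pathway went separate ways. Mevalonate kinase, MVK, had 15.7, 20.6, 9.78 and 7.68 CPM at 0, 1, 3 and 5 courses, highest in course 1 and lowest in course 5. Phosphomevalonate kinase, PMVK, which acts on the product of MVK, had 26.2, 22.2, 32.5 and 38.6 CPM at 0, 1, 3 and 5 courses. PMVK was therefore lowest in course 1 and highest in course 5, with a log2 ratio of course 5 over course 1 of 0.80 (0.68 to 0.91), the only positive one among the 18 synthesis enzymes. Mevalonate diphosphate decarboxylase, MVD, had 33.6 CPM before treatment and 56.0, 22.1 and 19.6 CPM after 1, 3 and 5 courses. The isomerase IDI1, which interconverts the isoprenoid units, had 51.8 CPM before treatment and 79.0, 30.9 and 31.0 CPM after 1, 3 and 5 courses. Farnesyl diphosphate synthase, FDPS, which feeds sterols as well as protein prenylation, had 187 CPM before treatment and 222, 110.1 and 89.8 CPM after 1, 3 and 5 courses. In all 3 the course 1 library was the highest and both later courses lay below parental, with IDI1 at the same level in courses 3 and 5.

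Of the 11 enzymes from squalene to cholesterol, 10 were higher in course 1 than in parental cells and all 11 were lower in course 5. The first enzyme, FDFT1 (squalene synthase), varied little, between 258 and 351 CPM, with a log2 ratio of course 5 over course 1 of -0.33. Squalene epoxidase, SQLE, a rate-limiting step, stood at 109.6 CPM in parental cells and at 142, 76.0 and 68.9 CPM in DMSO courses 1, 3 and 5. FDFT1 and SQLE are neighbours in the pathway, and only SQLE was apart between courses 5 and 1. The cyclase LSS, which forms lanosterol, was low, between 3.75 and 5.36 CPM, and its course 1 and parental levels were not distinguishable at this depth (log2 ratio 0.09, interval -0.17 to 0.34).

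CYP51A1, MSMO1 and TM7SF2, which act on lanosterol and the sterols made from it, had the 3 highest ratios of course 1 over parental in the synthesis pathway. MSMO1, the C4-methylsterol oxidase, had 24.1, 49.3, 18.0 and 16.5 CPM at 0, 1, 3 and 5 courses. TM7SF2, a C14 sterol reductase, had 15.9, 29.6, 14.9 and 12.6 CPM at 0, 1, 3 and 5 courses. CYP51A1, the lanosterol demethylase, had 3.23, 7.10, 2.87 and 2.68 CPM at 0, 1, 3 and 5 courses, from 122 to 306 counts a library. In each the course 1 library stood alone, at 2.05, 1.86 and 2.2 times the parental level, and course 3 was near parental for TM7SF2 and CYP51A1. TM7SF2 overlaps VPS51 on the same strand, and CYP51A1 has processed copies that hold reads, so the counts of both are uncertain. HSD17B7, the 3-ketosteroid reductase, had 18.8, 27.4, 14.8 and 10.0 CPM at 0, 1, 3 and 5 courses. It was highest in course 1. Its log2 ratio of course 5 over course 3 was the lowest of the synthesis enzymes (-0.56, -0.73 to -0.39). Reads that align to both HSD17B7 and its near-identical copy HSD17B7P2 stay out of genes, so its counts are uncertain too.

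Among the later enzymes, DHCR7 and EBP were flatter in course 1, while SC5D was higher than parental (log2 ratio 0.25, interval 0.13 to 0.37). DHCR7, which makes cholesterol from its direct precursor, stood at 49.8 CPM in parental cells and at 47.2, 24.8 and 20.9 CPM in DMSO courses 1, 3 and 5. EBP, the sterol isomerase, stood at 51.3 CPM in parental cells and at 54.1, 35.0 and 31.4 CPM in DMSO courses 1, 3 and 5. For both, parental and course 1 were about level and courses 3 and 5 lay lower, the arrangement seen in ACAT2. NSDHL, a decarboxylating dehydrogenase (14.0 to 19.8 CPM), and SC5D, the desaturase before DHCR7 (18.1 to 25.1 CPM), differed by less than 0.5 on the log2 scale between any pair of libraries.

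Sensors and regulators did not move as 1 group. SREBF2 had 294 CPM before treatment and 412, 312 and 277 CPM after 1, 3 and 5 courses, with course 1 the highest and the other libraries close together. SREBF1, which encodes the related factor with fatty acid targets, lay between 202 and 254 CPM, and SCAP between 88.6 and 118 CPM, with its higher values in courses 3 and 5. INSIG1, itself an SREBP target, had 99.5 CPM before treatment and 151, 51.0 and 35.4 CPM after 1, 3 and 5 courses. It had the widest span of the 32 genes between courses 5 and 1, with a log2 ratio of -2.09 (-2.17 to -2.02), and course 5 was below course 3 as well (-0.53). INSIG2, its close relative, had 19.5 CPM before treatment and 38.2, 14.3 and 14.1 CPM after 1, 3 and 5 courses. INSIG2 was highest in course 1, like INSIG1, but was at the same level in courses 3 and 5.

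Carriers of cholesterol inside the cell were higher in course 1. STARD4, a soluble sterol transfer protein and SREBP2 target, stood at 64.7 CPM in parental cells and at 162, 60.8 and 41.2 CPM in DMSO courses 1, 3 and 5. Its course 1 level was 2.51 times the parental one, and course 5 held 1 part in 3.93 of that. NPC1 and NPC2, which hand lipoprotein cholesterol out of the lysosome, peaked in course 1 too. NPC1 stood at 25.7 CPM in parental cells and at 40.2, 32.3 and 34.8 CPM in DMSO courses 1, 3 and 5. NPC2 stood at 62.9 CPM in parental cells and at 93.4, 64.4 and 59.1 CPM in DMSO courses 1, 3 and 5. NPC1 was above parental in all 3 DMSO libraries, while NPC2 was near parental in courses 3 and 5. The median log2 ratio of these 3 genes over parental was 0.64, 0.03 and -0.09 in courses 1, 3 and 5.

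On the LXR side the receptors, exporters and MYLIP did not share a course. NR1H2 (LXR beta) was steady between 142 and 151 CPM. NR1H3 (LXR alpha) varied more, at 9.77, 12.2, 8.52 and 4.35 CPM at 0, 1, 3 and 5 courses. Course 5 stood alone as the lowest library for NR1H3, at a log2 ratio of -0.97 (-1.22 to -0.73) to course 3, from 198 counts. ABCA1 had 18.8, 16.8, 30.8 and 39.2 CPM at 0, 1, 3 and 5 courses. Its libraries fell into a low pair (parental and course 1) and a high pair (courses 3 and 5), with log2 ratios of 1.06 (0.96 to 1.17) for course 5 over parental and 1.23 (1.10 to 1.35) for course 5 over course 1. ABCG1, its partner in export, was barely detected, with 0 counts in each DMSO library and 8 in the parental one. With the counting error of both libraries included, the exact 95% intervals of its log2 ratio to parental had upper ends of -0.31, -0.54 and -0.39 in courses 1, 3 and 5.

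MYLIP had 152 CPM before treatment and 442, 131 and 116 CPM after 1, 3 and 5 courses. The course 1 library exceeded the other 3 by a wide margin, at 2.91 times parental, and course 5 stood at a log2 ratio of -1.93 to course 1 (-1.97 to -1.89). ABCA1 and MYLIP, both LXR targets, thus ran in opposite directions between courses 1 and 5. SOAT1, which esterifies cholesterol for storage in lipid droplets, had 27.2 CPM before treatment and 17.8, 31.4 and 36.2 CPM after 1, 3 and 5 courses. Like ABCA1 it was lowest in course 1 and highest in course 5. The median log2 ratio of the 4 LXR and export genes averaging at least 1 CPM was 0.16, -0.13 and -0.24 in courses 1, 3 and 5, and with ABCG1 set to a floor of 3 counts the course 1 median was -0.01.

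**Figure D3:**
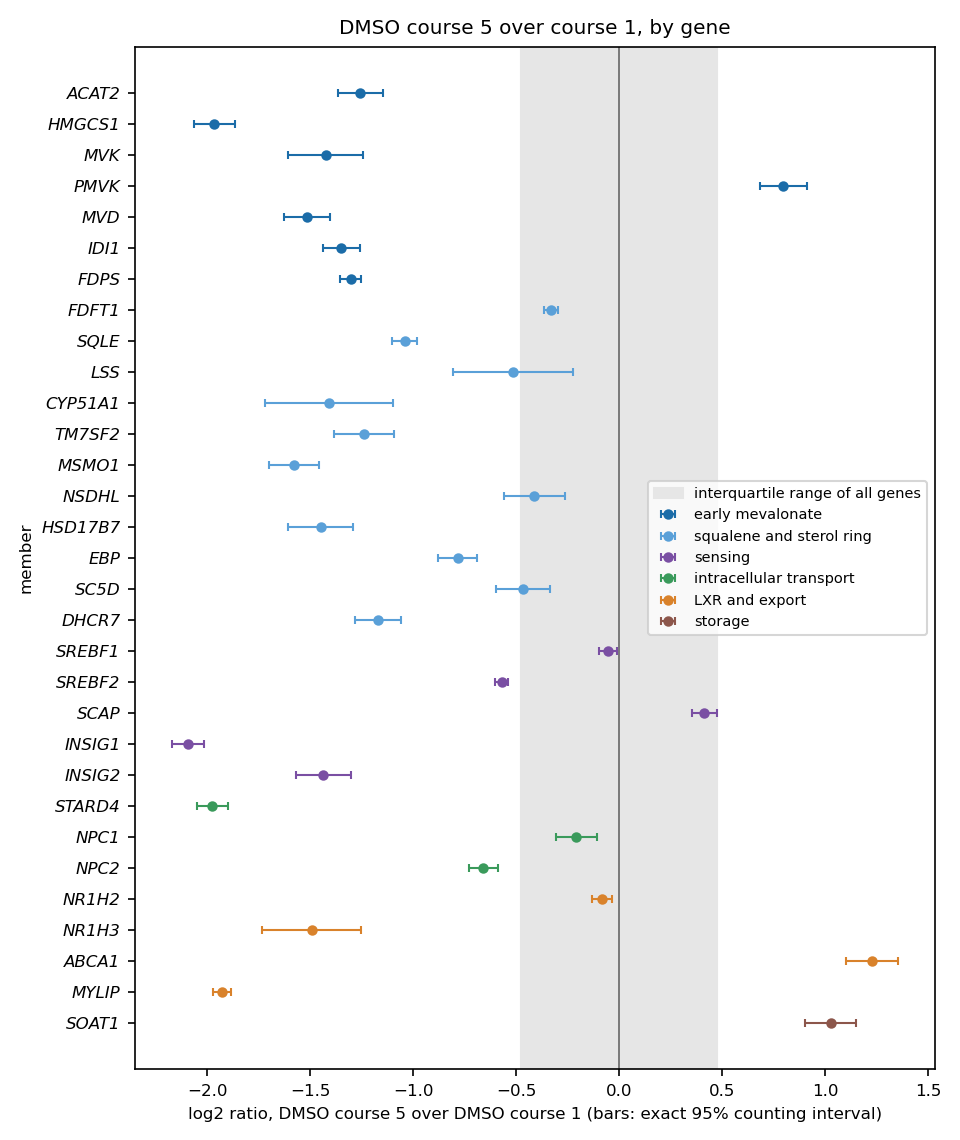
Log2 CPM ratio of DMSO course 5 over course 1 for each gene averaging at least 1 CPM, with the exact 95% counting interval as a bar, coloured by role. Points lie from -2.09 (INSIG1) to 1.23 (ABCA1), and most synthesis genes lie below -1. The shaded band is the interquartile range of all genes at that mean, -0.48 to 0.47.

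Taken by role, the 2 arms differed in how uniform they were. The 18 synthesis enzymes had summed levels of 1040 CPM in parental cells and 1301, 740.5 and 710.5 CPM in courses 1, 3 and 5. Counting intervals of the ratio to parental lay above 0 for 12 of 18 enzymes and below 0 for 1 in course 1, while in course 5 they lay below 0 for 16 and above 0 for 1. The share of all genes with such intervals is not given. By sign alone, 15 of 18 enzymes were higher in course 1, against 6973 higher and 6615 lower of all genes. In course 5, 17 of 18 were lower, against 6990 higher and 6599 lower of all genes. The enzymes up to FDPS had median log2 ratios to parental of 0.40, -0.74 and -1.03 in courses 1, 3 and 5, and those from squalene onward 0.26, -0.35 and -0.43. The early enzymes thus had the wider span. The difference between the 2 stages, and between synthesis and export, was not tested.

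**Figure D4:**
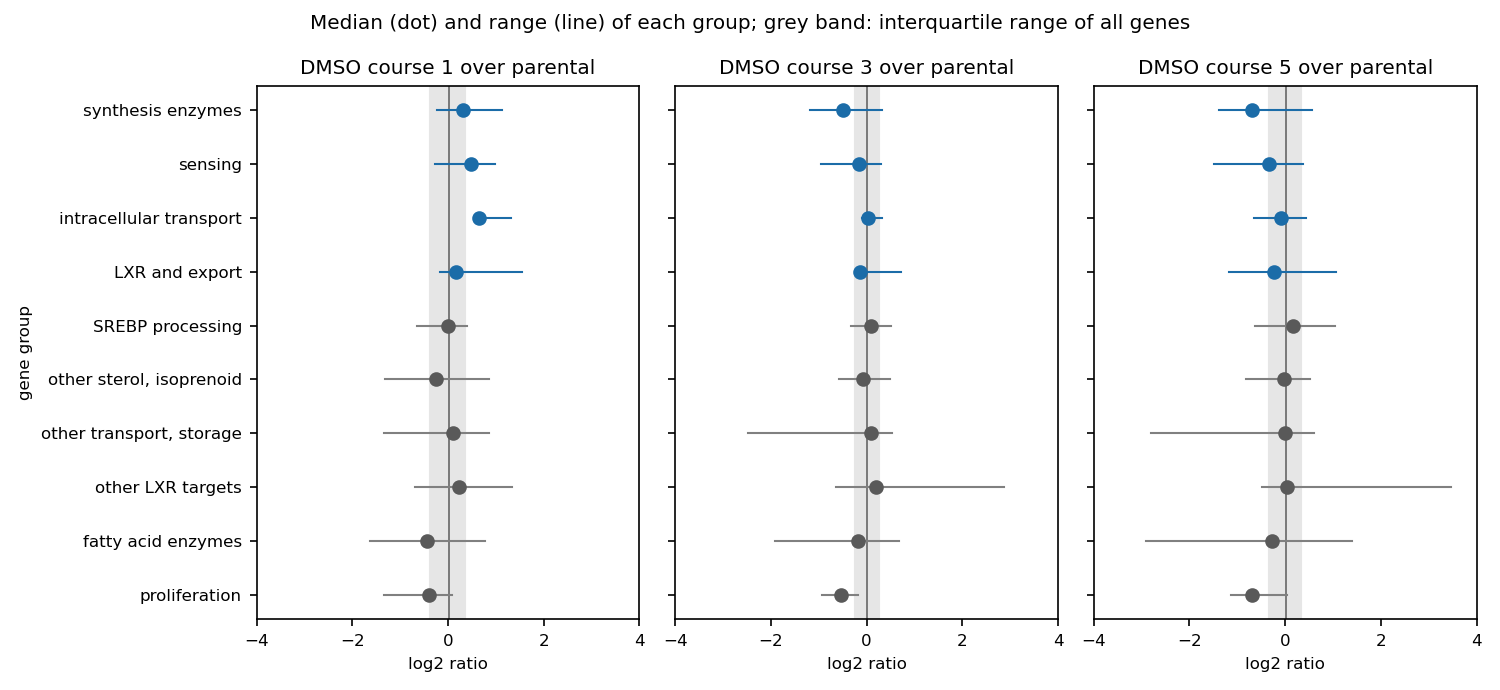
Median (dot) and range (line) of the log2 CPM ratio to parental of 4 role groups of the listed genes and 6 related gene lists, in 1 panel each for DMSO courses 1, 3 and 5. The synthesis medians are 0.32, -0.49 and -0.69, and the grey band is the interquartile range of all genes, which in course 5 runs from -0.34 to 0.34.

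Per kilobase of exon, FDFT1 was the most abundant of the 32 genes in the parental library, course 3 and course 5 (56.2, 49.5 and 53.6 CPM per kb), and MYLIP was in course 1 (146 CPM per kb). MYLIP stood at 49.99 CPM per kb in parental cells and at 43.2 and 38.2 CPM per kb in courses 3 and 5. Averaged over the 4 libraries, SREBF2 had 42.8, FDPS 40.9 and NR1H2 39.2 CPM per kb. On the same average SREBF2 exceeded SREBF1 (27.8 CPM per kb), INSIG1 (23.1) exceeded INSIG2 (5.45), and NR1H2 exceeded NR1H3 (1.92). Among the enzymes, LSS (0.639 CPM per kb) and CYP51A1 (1.11) were the least abundant, and ABCG1 had the lowest mean of all, 0.00552 CPM per kb. Within the synthesis pathway the mean level per kilobase therefore spanned FDFT1 at the top and LSS, the second enzyme after it, at the bottom.

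With the libraries pooled, edgeR's quasi-likelihood test of the 3 DMSO courses against the parental library called no gene of the 18612 tested (0%) at a Benjamini-Hochberg adjusted p under 0.05, and 1045 (5.61%) had an unadjusted p under 0.05. None of the 31 listed genes in that test was called or reached an unadjusted p under 0.05, and their lowest adjusted p was 0.928. The DMSO libraries differ from each other in this pathway, and that spread enters the test. Without course 1 the same test called 1578 genes (8.59%), 9 listed genes among them. ACAT2, HMGCS1, MVD, IDI1, FDPS, EBP, DHCR7 and INSIG1 then fell (against 5.19% of all genes called lower) and ABCA1 rose (against 3.40%), with 1 residual degree of freedom and a lone parental library assumed to vary like the other libraries. No listed gene was called by DESeq2's Wald test (209 genes, 1.12%), without a filter on low counts (13 genes, 0.0454%), without course 3 (25 genes, 0.137%) or without course 5 (31 genes, 0.168%).

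A slope fitted over 0, 1, 3 and 5 courses with edgeR's quasi-likelihood test also called no gene of 18612 (0%), and 2940 (15.8%) had an unadjusted p under 0.05. None of the 31 listed genes passed, 13 had an unadjusted p under 0.05, and 26 slopes were negative. The share of negative slopes over all genes is not given. DHCR7 had the lowest adjusted p among them in edgeR, 0.17, with a slope of -0.28 per course on the log2 scale (SE 0.05). INSIG1 had a slope of -0.40 per course (SE 0.10, edgeR adjusted p 0.217) and ABCA1 one of 0.25 (SE 0.06, edgeR adjusted p 0.202). DESeq2's Wald test on the same slope called 888 genes (4.77%). Among them ACAT2, HMGCS1, FDPS, DHCR7 and INSIG1 fell (against 3.54% of all genes called lower) and ABCA1 rose (against 1.24%). Over the 3 DMSO libraries alone, without parental, edgeR called 4094 genes (22.8%) on 1 residual degree of freedom, 23 listed genes among them, 20 lower (against 12.9%) and PMVK, ABCA1 and SOAT1 higher (against 9.92%). Without course 1 the slope called 2795 genes (15.2%), 12 of the listed genes among them, 11 lower (against 8.48%) and ABCA1 higher (against 6.73%). Without a filter on low counts (134 genes, 0.468%), without course 3 (32 genes, 0.175%) or without course 5 (5 genes, 0.0271%) no listed gene was called.

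Related genes outside the 32 were read for whether they shared the course 1 peak. The 13 proteins used from the SREBP processing and sterol-regulated degradation list had median log2 ratios to parental of -0.01, 0.09 and 0.16 in courses 1, 3 and 5, near those of all genes. In that list RNF145, a ubiquitin ligase of sterol-regulated degradation and an LXR target, had 37.5, 48.2, 53.1 and 76.8 CPM at 0, 1, 3 and 5 courses, apart only in course 5 over parental. AUP1, a partner of the degradation machinery, had 187, 241, 163 and 136 CPM at 0, 1, 3 and 5 courses. The 14 other sterol and isoprenoid enzymes used had medians of -0.26, -0.08 and -0.03, and there FNTB, the farnesyltransferase beta subunit, had 10.1, 18.5, 8.22 and 7.48 CPM at 0, 1, 3 and 5 courses. FNTB was highest in course 1, like the synthesis enzymes.

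The list of other LXR targets and partners did not follow ABCA1 as a whole. The 9 genes used had medians over parental of 0.24, 0.20 and 0.04 in courses 1, 3 and 5. They mix LXR targets with partners and cofactors such as RXRA, NCOR1, NRIP1 and NCOA5, so these medians do not describe targets alone. SMPDL3A, a phosphodiesterase, had 6.10, 5.04, 8.38 and 14.4 CPM at 0, 1, 3 and 5 courses, and NRIP1, a nuclear receptor cofactor, had 1.17, 1.81, 8.52 and 12.9 CPM at 0, 1, 3 and 5 courses. Both were highest in course 5, like ABCA1. At least 2-fold apart between course 5 and course 1 were 2 higher and 2 lower of the 9 with a mean of at least 5 CPM.

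Other transport and storage genes had medians of 0.09, 0.10 and -0.00 in courses 1, 3 and 5 (19 genes used). The receptor LRP1 had 13.1, 8.91, 2.35 and 1.89 CPM at 0, 1, 3 and 5 courses, and the transporter ABCA5 had 20.3, 15.99, 7.85 and 4.70 CPM at 0, 1, 3 and 5 courses. LRP8, another receptor of the lipoprotein receptor family, had 67.2, 26.7, 52.3 and 49.2 CPM at 0, 1, 3 and 5 courses, lowest in course 1. Fatty acid enzymes driven by SREBP1, of which 12 were used, had medians of -0.45, -0.19 and -0.27. Their median lay below parental in course 1, where that of the cholesterol enzymes lay above it. Among the desaturases of the list, FADS1 and FADS2 varied over a wide range, while SCD lay between 310 and 378 CPM. FADS1 had 36.5, 14.3, 14.4 and 14.6 CPM at 0, 1, 3 and 5 courses, and FADS2 had 47.7, 32.1, 12.6 and 6.32 CPM at 0, 1, 3 and 5 courses.

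Proliferation genes were also lower in the DMSO libraries and are given beside the pathway. Of 24 such genes, 23, 24 and 23 were lower than parental in courses 1, 3 and 5. Of all genes averaging at least 1 CPM, 6615, 6634 and 6599 were lower and 6973, 6955 and 6990 higher. The 24 genes had median log2 ratios of -0.39, -0.54 and -0.70. Their summed levels were 3465 CPM in parental cells and 2291, 2380 and 2321 CPM in courses 1, 3 and 5. In course 1 these genes were lower while the synthesis enzymes were higher, and in courses 3 and 5 both lists were lower. The part of growth state, serum level or passage in the cholesterol values was not tested.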

How the data were processed

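Bulk RNA of MOLM-13 cells was sequenced with a TruSeq kit, per the labels' protocols. The authors deposited unnormalized counts of reads for each Ensembl gene ID and 5 summary entries per library. The submitters' processing notes name hg19 as the build and, as tools, HTSeq 0.6p1, TopHat2 2.0.11 and FastQC 0.11.5. All 58735 IDs nevertheless matched GENCODE 29, which annotates GRCh38, and the build used for counting is uncertain. The deposited names point to reverse-stranded counting, and reads aligned to several places stay out of genes. The labels give 8 samples, and 4 were not analysed here. Summary entries held 24.57 to 29.81% of reads and were left out.

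CPM was computed from the deposited counts with TMM-scaled library sizes in edgeR 4.0.16 (R 4.3.3), after filterByExpr (minimum count 10, minimum total 15) kept 18612 genes. Single libraries were compared as log2 CPM ratios with exact Clopper-Pearson 95% intervals, which cover counting error only and no variation between cultures. Medians used genes averaging at least 1 CPM. Adjusted p-values come from edgeR's quasi-likelihood fits over all genes, pooled DMSO against parental and a slope over courses, each with 2 residual degrees of freedom. Nothing in the labels says that libraries are replicate cultures of 1 state, so p-values reflect only how far these libraries scatter. limma 3.58.1 (voom) and DESeq2 1.42.0 were alternatives. On simulated counts for 18612 genes at a dispersion of 0.1, the pooled fit recovered 61 of 100 genes changed 4-fold and called 17 unchanged genes. The slope fit recovered 31 of 100 and called 5 unchanged genes. The simulated recovery does not give the power in these data, where many listed genes rose and then fell over the courses. Any pair of libraries differed beyond counting noise. All 32 genes are named, and values in full are given for the 25 with a mean of at least 1 CPM and a log2 ratio of at least 0.5 in size between some pair of libraries. Up to 4 genes of each other list qualified for naming, those with the widest range. A few of these genes are not reported here. The members and lists were chosen with earlier results of these data known.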

Additional observations from a re-analysis of the deposited data

Results flagged for a closer look

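For 7 genes the course 1 and course 5 libraries lay on opposite sides of parental, each by at least 0.5 on the log2 scale and with a counting interval that excluded 0. The share of all genes that meet this rule is not given, so the count has no background. The difference between the courses was not tested, since each course has 1 library. The rule itself selects genes with a large ratio between courses 5 and 1. The log2 ratio of course 5 over course 1 was -1.97 for HMGCS1, -1.52 for MVD, -1.35 for IDI1, -1.58 for MSMO1, -1.45 for HSD17B7, -2.09 for INSIG1 and -1.98 for STARD4. All 7 were above parental in course 1 and below it in course 5. INSIG1 was at 0.60 and -1.49 over parental in courses 1 and 5, HMGCS1 at 0.58 and -1.39, and STARD4 at 1.33 and -0.65. Reads that align to both HSD17B7 and HSD17B7P2 stay out of genes, so the counts of HSD17B7 are uncertain. HSD17B7P2 had 252 counts in parental cells and 493, 156 and 107 in courses 1, 3 and 5.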

How the results depend on the processing

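Scaling by DESeq2 size factors or without mitochondrial genes left the 189 ratios of the listed genes within their counting intervals. Scaling by total gene counts shifted all ratios to parental by -0.11, -0.08 and -0.04 in courses 1, 3 and 5 and moved 44 of 189 beyond their interval. It reversed SREBF1 between courses 5 and 1 (0.0162, against -0.06) and the transport median in course 3 (-0.044, against 0.03), and moved the transport median in course 1 to 0.53, against 0.64. Under it 283 genes were apart and higher and 664 lower in course 1 over parental, against 396 and 449, with 2 listed genes higher, against 3. Counting every gene with a count, ABCG1 included, reversed the LXR and export median of course 1 over parental (-0.0075, against 0.16). The pooled comparison called 209 genes with DESeq2 and 13 without the filter on low counts, against 0 with edgeR or limma-voom, and 25 to 1578 when 1 library was left out. The slope called 888 genes with DESeq2 and 134 without the filter, and 5 to 4094 when 1 library was left out. Without parental the pooled comparison cannot be made. No paired analysis was possible because each group has 1 library. The cause of these shifts was not tested. Depth limits LSS, CYP51A1, NR1H3 and ABCG1 most, and the single library at each course limits all results.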

Other observations

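NPC1L1, the relative of NPC1 that takes up sterols in the intestine, was chosen after its values were seen. It stood at 2.16 CPM (128 counts) in parental cells, 6.45 (278 counts) in course 1, 2.41 (121 counts) in course 3 and 3.36 (153 counts) in course 5, highest in course 1 like STARD4, NPC1 and NPC2. EBPL, a homologue of the sterol isomerase EBP, was also picked after its values were seen. It stood at 60.7, 64.7, 67.1 and 70.5 CPM at 0, 1, 3 and 5 courses, so it lay above parental in courses 3 and 5, where EBP lay below.

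Processed copies of pathway enzymes had few reads. CYP51A1P1, CYP51A1P2 and CYP51A1 itself were each highest in course 1, at 1.72, 2.69 and 7.10 CPM, while FDPSP1 stood at 2.21 CPM in course 1, against 2.65 CPM in parental cells. ME1, a malic enzyme that supplies NADPH for lipid synthesis, had 3.40, 1.09, 4.52 and 8.89 CPM at 0, 1, 3 and 5 courses, lowest in course 1 and highest in course 5.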
